A study of Mus musculus with 57 samples.

Results

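The 6 genes described here were Bmp2 and Bmp4, which encode secreted ligands of the bone morphogenetic protein (BMP) pathway, Id1, Id2 and Id3, which encode inhibitors of DNA binding by basic helix-loop-helix proteins, and Smad6, which encodes an inhibitory SMAD that dampens BMP signalling. BMP ligands bind serine/threonine kinase receptors, and the receptors phosphorylate SMAD1, SMAD5 and SMAD9, which enter the nucleus with SMAD4. The Id genes and Smad6 are textbook targets of these SMADs. In mouse embryonic stem (ES) cells BMP4 acts with leukaemia inhibitory factor to maintain self-renewal, partly through the Id genes. GATA6 is a zinc finger factor that drives primitive endoderm (PrE) fate, NANOG and SOX2 belong to the pluripotency network of ES cells and the epiblast (Epi), and GATA4 and SOX17 are PrE factors that follow GATA6.

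Members of the set were the peaks of 30 CUT&RUN peak lists with a summit within 50 kb of the start of 1 of the 6 genes in the GENCODE annotation of mm10. They numbered 662 of the 775295 peaks in all lists and merged into 120 of the 202062 sites of the genome, where a site is a stretch covered by peaks that overlap by at least 1 bp. CUT&RUN uses an antibody to tether a nuclease to a chromatin protein and sequences the DNA fragments that the nuclease releases. KH2 mouse ES cells of strain C57BL/6 with the doxycycline-inducible transgene TRE:GATA6-DSREd2 were profiled for GATA6 at 0, 2, 4, 8 and 48 h, for NANOG and SOX2 at 0, 2, 4 and 8 h, and for GATA4 and SOX17 at 24 h after doxycycline. Every one of the 15 groups had 2 lists. All cells carried the transgene. Cells at 0 h were grown in 2i medium without doxycycline, whereas induced cells were in medium with serum, so that induction and the change of medium cannot be told apart. Cells at 24 and 48 h had been exposed to doxycycline for the first 12 h and were then kept without it. The control library used for peak calling was made at 48 h. The study's reporting form describes replicates as independent experiments, without saying whether the 2 lists of a group came from separate cultures, so p-values measure the spread between these lists, which may in part be technical.

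The 6 GATA6 lists of 4, 8 and 48 h carry peak names that disagree with the samples under which they are recorded. Here a list was taken at the time in its peak names, and under the record the lists called 48 h here would be 4 h, those called 4 h would be 8 h, and those called 8 h would be 48 h. The tests over all time points are the same under both. List length ranged from 84 peaks (GATA6 0 h, list 1) to 79356 peaks (GATA6 2 h, list 1), and the background against which peaks were called was 0.287 and 0.315 fragments per base in the GATA6 0 h lists against 0.928 to 1.34 in the induced GATA6 lists. No peak of either GATA6 0 h list lay near any of the 6 genes.

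In mm10, Bmp2 (ENSMUSG00000027358.6) lies at chr2:133552159-133562885 on the plus strand and had 30 peaks in 9 sites. Bmp4 (ENSMUSG00000021835.15) lies at chr14:46383520-46390669 on the minus strand and had 82 peaks in 20 sites. Id1 (ENSMUSG00000042745.9, chr2:152736251-152737410, plus strand) had 179 peaks in 30 sites, Id2 (ENSMUSG00000020644.9, chr12:25093799-25097140, minus strand) 106 in 21, and Id3 (ENSMUSG00000007872.3, chr4:136143497-136145755, plus strand) 160 in 25. Smad6 (ENSMUSG00000036867.7) lies at chr9:63953076-64022059 on the minus strand and had 105 peaks in 15 sites. A peak in both lists of at least 1 group was found at 52 of the 120 sites, and 49 sites held a peak in 1 list only. The member was the nearest protein-coding gene for 92 of the 120 sites. The remaining sites lay closer to other genes in the windows, which hold the starts of Gm15217 near Bmp4, Cox4i2 and Mcts2 near Id1, and E2f2 near Id3. Which gene a site acts on was not measured.

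To show what these sites are made of, the 201 bases around the strongest summit of any protein are given for 1 site of each gene. This is the site with the highest GATA6 fold at 2 h. For Id1 the window of that site touched an exon, and the site occupied in most groups is shown in its place. All are on the plus strand of mm10, read from the RefSeq copy of that assembly, 5′ to 3′, with matches on either strand to a GATA motif (AGATAA or AGATAG, as well as TGATAA or TGATAG) in capitals.
Bmp2, 26565 bp downstream of the start, chr2:133578624-133578824: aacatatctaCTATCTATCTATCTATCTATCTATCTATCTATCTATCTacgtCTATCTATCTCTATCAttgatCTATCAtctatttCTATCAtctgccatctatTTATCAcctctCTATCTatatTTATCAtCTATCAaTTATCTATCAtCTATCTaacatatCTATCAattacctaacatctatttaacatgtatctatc
Bmp4, 21999 bp upstream, chr14:46412568-46412768: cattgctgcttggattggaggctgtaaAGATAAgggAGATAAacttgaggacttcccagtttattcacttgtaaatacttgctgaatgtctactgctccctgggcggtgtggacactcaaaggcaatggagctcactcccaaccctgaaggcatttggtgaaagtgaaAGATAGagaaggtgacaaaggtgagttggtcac
Id1, 36246 bp downstream, chr2:152772397-152772597: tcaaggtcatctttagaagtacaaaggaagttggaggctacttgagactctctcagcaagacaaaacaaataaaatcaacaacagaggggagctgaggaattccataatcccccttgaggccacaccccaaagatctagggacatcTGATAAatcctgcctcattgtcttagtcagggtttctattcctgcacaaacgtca
Id2, 47588 bp upstream, chr12:25144628-25144828: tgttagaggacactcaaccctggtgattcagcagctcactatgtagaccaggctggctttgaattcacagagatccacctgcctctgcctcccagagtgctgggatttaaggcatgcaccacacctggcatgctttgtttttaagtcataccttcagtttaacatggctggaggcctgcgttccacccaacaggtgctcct
Id3, 3485 bp downstream, chr4:136146882-136147082: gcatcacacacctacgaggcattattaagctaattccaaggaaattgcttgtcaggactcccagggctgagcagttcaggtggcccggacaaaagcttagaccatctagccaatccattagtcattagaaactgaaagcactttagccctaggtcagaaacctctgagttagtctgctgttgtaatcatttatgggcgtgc
Smad6, 23439 bp upstream, chr9:64045398-64045598: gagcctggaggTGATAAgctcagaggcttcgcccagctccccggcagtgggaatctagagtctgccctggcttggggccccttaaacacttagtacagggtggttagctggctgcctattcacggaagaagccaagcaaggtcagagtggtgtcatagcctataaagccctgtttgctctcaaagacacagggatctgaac

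The GATA motif was unevenly spread over these windows. The Bmp2 window held 22 overlapping matches in a run of tandem repeats, and 62.7% of its bases were soft-masked as repeats in the assembly. The Bmp4 window held 3 matches, the Id1 and Smad6 windows 1 each, and the Id2 and Id3 windows none, although the Id3 site had a GATA6 fold close to that of the Bmp4 site. Of the 43 member sites with a peak in both GATA6 2 h lists, 19 (44.2%) had a GATA match within 100 bp of the strongest summit, against 53.7% of all 44768 such sites. The strongest summit was taken over all lists and was not always that of GATA6. At the printed Id1 and Id2 sites it was a SOX2 summit, with the GATA6 2 h summits inside the window. A SOX motif (ACAAAG or ACAATG, either strand) was present at 11 of the 43 (25.6%), against 35.7% of all. GGCGCC, a sequence bound by SMAD1 and SMAD5 with SMAD4, was present at 3 of the 43 (6.98%), against 2.21% of all, and the octamer ATGCAAAT at none, against 3.15%. Most of the 201-base window was repeat at 2 of the 43 sites (4.65%), against 14.7% of all.

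GATA6 peaks around 5 of the 6 genes were on average most numerous at 2 h and fewest, among induced cells, at 48 h. Among peaks with a −log10 q-value of at least 5, Id1 had a mean of 10 at 2 h and 10.5 at 4 h, and Smad6 7.5 at both, so that 2 h was the highest for 3 of these 5. Id1 had 21 and 16 GATA6 peaks in the 2 h lists, 13 and 16 at 4 h, 9 and 11 at 8 h, and 1 in each list at 48 h. Its mean at 2 h was above that of 98.6% of protein-coding genes, but Id1 was the nearest gene for only 13 of its 30 sites. Counting only peaks nearest to the Id1 start left 10 and 7 GATA6 peaks at 2 h, 6 and 7 at 4 h, 2 and 4 at 8 h, and 0 and 1 at 48 h. Id3 had 14 and 15 at 2 h, 13 and 12 at 4 h, 9 and 9 at 8 h, and 2 and 4 at 48 h. It was the member with the most GATA6 peaks at 48 h, above 97.6% of genes at that time.

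Smad6 had 11 and 10 GATA6 peaks at 2 h, 7 and 11 at 4 h, 6 and 7 at 8 h, and 2 in each list at 48 h. Id2 had 9 and 12 at 2 h, 5 and 10 at 4 h, 6 and 4 at 8 h, and none at 48 h. Bmp4 had 12 and 7, then 7 and 5, then 3 and 4, and none at 48 h. For each of these 5 genes both 2 h lists lay above both 48 h lists, as they did for 80.1% of the 19640 protein-coding genes with a GATA6 peak, while the 2 h and 4 h lists touched or overlapped except for Id3. Bmp2 was different in level, with 2 and 1 peaks at 2 h, 2 and 2 at 4 h, 2 and 1 at 8 h, and 1 in each list at 48 h, a mean at 2 h above that of 26.2% of genes.

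**Figure D1:**
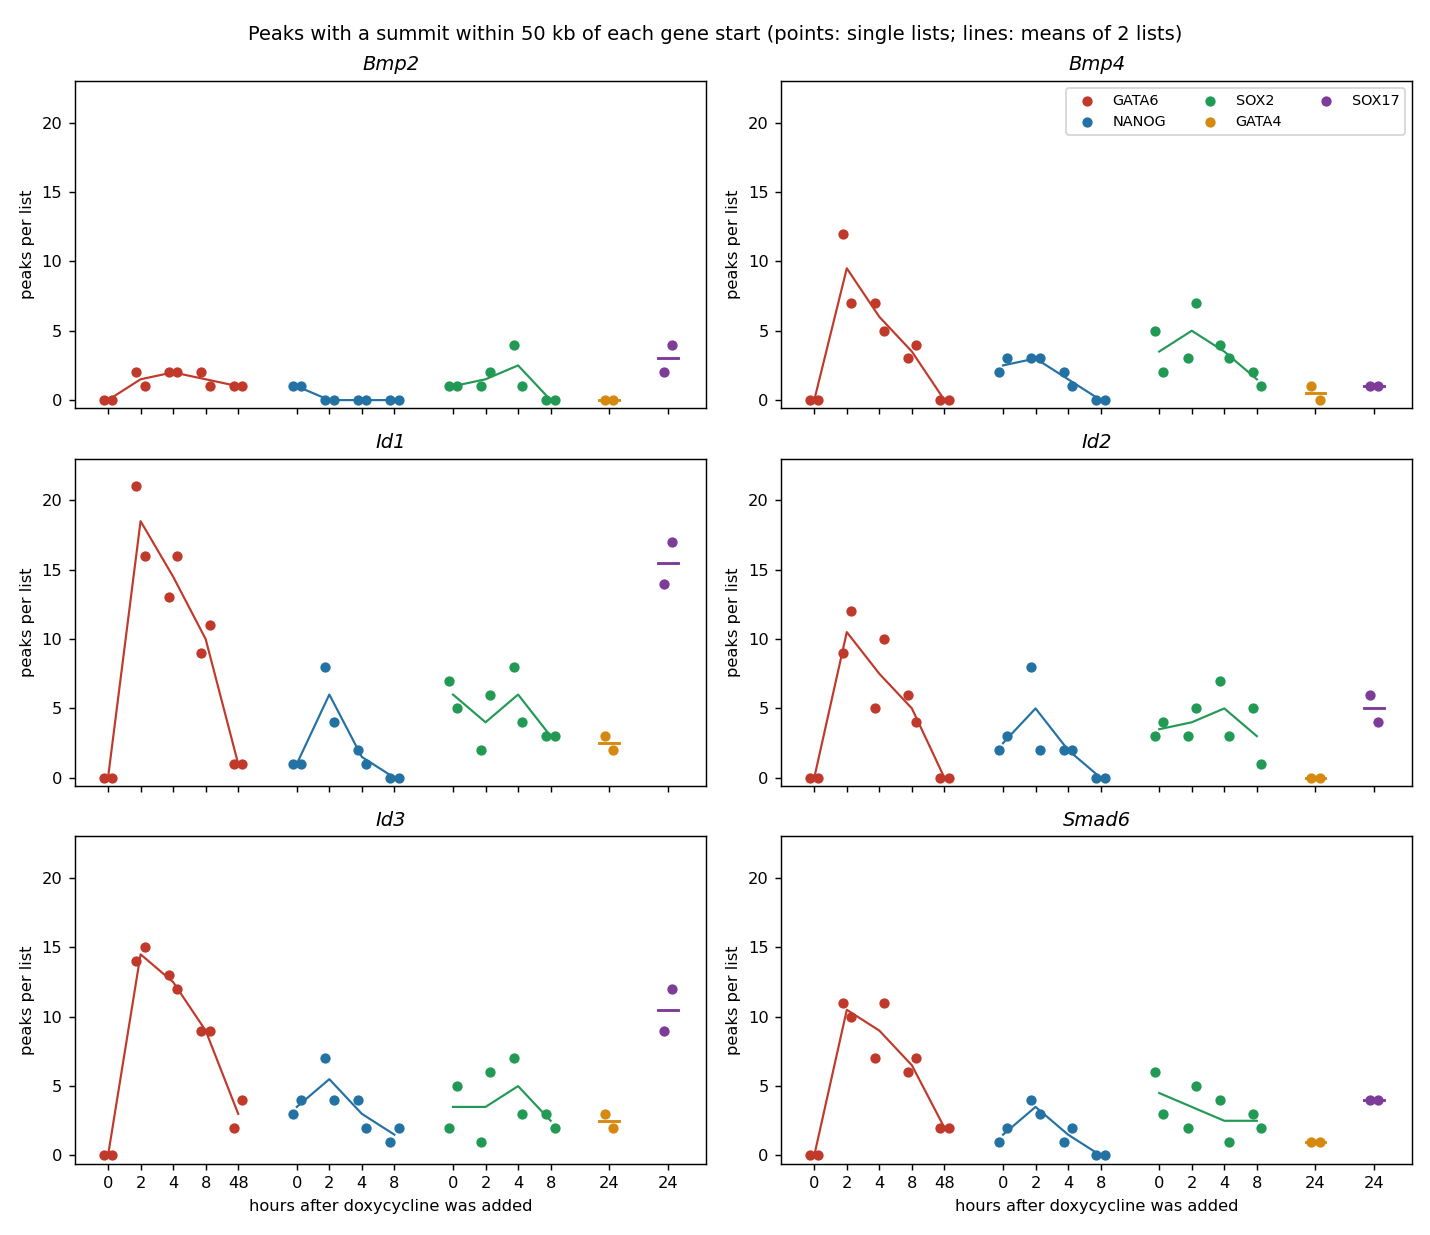
Number of peaks within 50 kb of each gene start (y axis) in each of the 30 lists, by protein and by hours after doxycycline (x axis). Points are lists and lines are means of 2 lists. GATA6 at Id1 rises from 0 to 21 and 16 at 2 h and is at 1 in both lists at 48 h, whereas Bmp2 stays at 4 or fewer peaks of any protein.

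Over the 5 time points, the exact permutation F test with Benjamini-Hochberg adjustment called GATA6 peak number for Bmp4 (adjusted p = 0.0278), Id1 (0.0205), Id2 (0.0412), Id3 (0.0205) and Smad6 (0.0278), but not for Bmp2 (0.121). These were 5 of 6 genes, beside 47.4% of the 19640 protein-coding genes tested, and at an unadjusted p of 0.05 or less 5 of 6 beside 67.0%. Without the 0 h lists the exact permutation F test called no gene of the genome (7489 had an unadjusted p of 0.05 or less), and with 8 lists it can give no p below 0.00952. The call for Id2 was lost on leaving out any of 4 lists, GATA6 0 h list 1 or 2 (adjusted p = 0.0519 and 0.0516 in the exact permutation test), 2 h list 2 (0.0534) or 8 h list 2 (0.0552), and that for Bmp4 on leaving out 8 h list 1 (0.0503).

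The length of the lists declined over the same time points. The 6 genes together had 69 and 61 GATA6 peaks at 2 h, 47 and 56 at 4 h, 35 and 36 at 8 h, and 6 and 8 at 48 h, but this was 0.0869% and 0.0973% of the peaks in the lists at 2 h, 0.122% and 0.119% at 8 h, and 0.101% and 0.0819% at 48 h. When every induced list was cut to its 5930 strongest peaks, the 6 genes kept 9 and 9 peaks at 2 h, 7 and 7 at 4 h, 5 and 7 at 8 h, and 6 and 7 at 48 h. This is the length of list 1 at 48 h, which kept all its peaks. The lowest −log10 q-value kept was 31.1 at 2 h but 1.31 at 48 h, so that weak 48 h peaks were set against strong 2 h peaks. In lists of equal length, Id1 went from 3 and 4 peaks at 2 h to 1 and 1 at 48 h, Id3 from 4 and 3 to 2 and 4, and Smad6 from 1 and 1 to 2 and 2. None of the 6 genes, and no gene of the genome, was called in lists of equal length (363 of 10751 genes had an unadjusted p of 0.05 or less). A change with time in the share of the strongest GATA6 peaks held by these genes was thus not detectable with these lists.

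**Figure D2:**
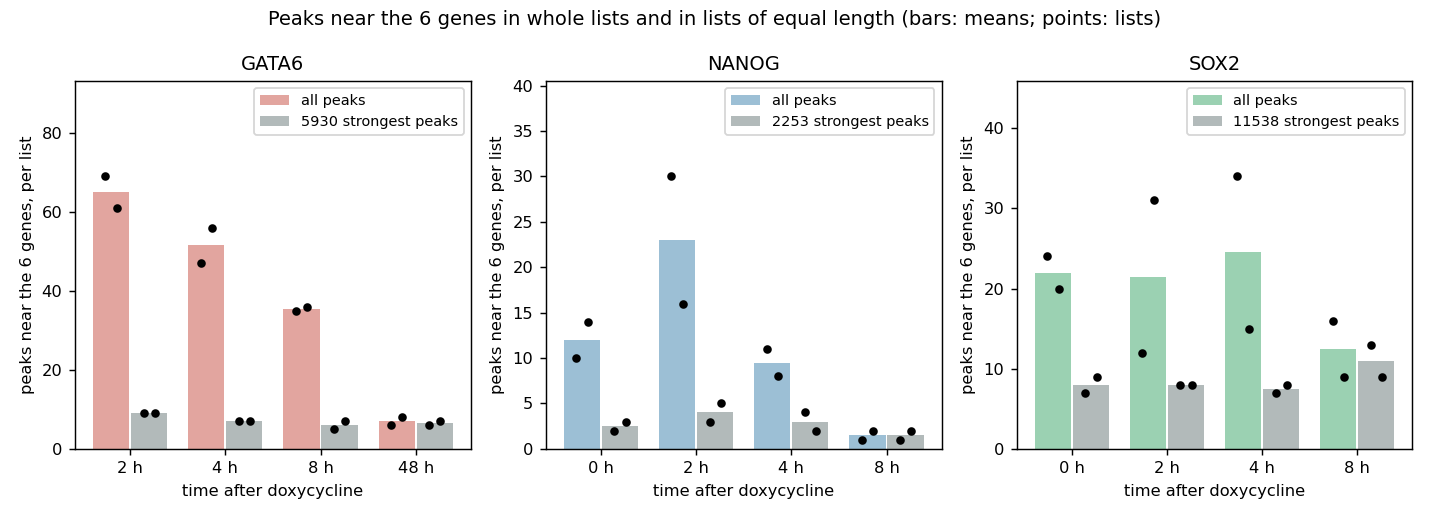
Peaks near the 6 genes per list (y axis) at each time after doxycycline (x axis), in the whole lists and in the strongest peaks only, with every list of a protein cut to the same length. That length is set by the shortest list shown, which keeps all its peaks. Bars are means of 2 lists and points are lists. GATA6 falls from 69 and 61 to 6 and 8 in the whole lists and lies between 5 and 9 in lists of 5930 peaks.

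Among the 6 genes, the strongest GATA6 sites at 2 h lay near Bmp4 and Id3. The fold, the ratio of fragments at the summit to the local background, was 75.2 and 51.2 in the 2 lists at the Bmp4 site 21999 bp upstream (chr14:46411799-46413564, intergenic). In those lists this peak ranked at place 135 of 79356 and at place 245 of 62681, and it rested on 175 and 107 fragments. The fold was 38.3 and 41.8 at 4 h and 25.8 and 28.2 at 8 h, and neither 48 h list held a peak there. The lists of 2, 4 and 8 h were thus in falling order with no overlap.

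This Bmp4 site was held by NANOG and SOX2 before induction. The NANOG fold was 7.89 and 11.2 at 0 h, 22.5 and 14.9 at 2 h and 15.0 and 11.9 at 4 h, with no peak in either list at 8 h. The SOX2 fold was 8.49 and 9.43 at 0 h, 18.8 and 24.8 at 2 h, 20.5 and 9.93 at 4 h and 10.9 and 10.4 at 8 h. SOX17 was present at 24 h in both lists (8.32 and 8.09) and GATA4 in list 1 only (5.67). It was the site around Bmp4 with the highest fold for GATA6 at 2 h and for NANOG and SOX2 at 0 h. The only other Bmp4 sites with both GATA6 2 h lists lay 160 bp downstream of the start in a UTR (4.27 and 3.68) and, named after their values were seen, 1329, 19447 and 28201 bp upstream.

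The Id3 site 3485 bp downstream of the start (chr4:136146310-136147956, intergenic, beyond the 3′ end of the gene) had a GATA6 fold of 72.3 and 49.6 at 2 h, 39.0 and 36.7 at 4 h and 29.0 and 20.2 at 8 h, and no peak at 48 h. Its GATA6 2 h peaks ranked at place 114 and place 134 of their lists. Both lists held a peak here in 12 of the 15 groups, the most of any member site. The NANOG fold was 14.7 and 22.0 at 0 h, 32.6 and 30.2 at 2 h, 17.2 and 16.6 at 4 h and 11.1 and 6.21 at 8 h. It was the only member site with NANOG in both lists at 8 h, when both NANOG lists were short (5506 and 2253 peaks). The SOX2 fold was 17.6 and 22.9 at 0 h, 24.9 and 21.3 at 2 h, 29.6 and 15.4 at 4 h and 11.1 and 11.8 at 8 h, so that the 8 h lists lay below all others.

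The start of Id3 itself was also a GATA6 site (chr4:136143341-136144978, strongest summit 208 bp downstream of the start in a UTR). It held more than 1 GATA6 summit. At the start, 178 to 252 bp downstream, the fold was 17.9 and 16.1 at 2 h, 14.1 and 17.4 at 4 h and 10.7 and 12.9 at 8 h, and at 48 h a peak was found there in list 2 only (4.95). Further into the gene, 1076 to 1200 bp downstream, a summit was present in list 2 at 2 h (8.85), in both lists at 8 h (7.56 and 7.9) and in both at 48 h (4.79 and 8.66). In list 1 at 2 h and list 2 at 4 h the peak at the start was wide enough to cover this place. List 1 at 4 h had a separate peak with its summit 910 bp downstream (2.70). NANOG was in 1 of 2 lists at 0 h (6.91), in both at 2 h (19.7 and 17.3) and 4 h (12.4 and 8.12), and in 1 of 2 at 8 h (7.93). SOX2 was in 1 of 2 lists at 0 and 2 h and in both at 4 h (11.9 and 11.5) and 8 h (8.21 and 11.9). SOX17 was present in both lists (8.59 and 9.95).

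Around Id1, 11 sites held a peak in both GATA6 2 h lists, as many as around Id3. The strongest lay 29204 bp upstream in a UTR of H13 (chr2:152706487-152708362), with a GATA6 fold of 34.3 and 23 at 2 h, 15.4 and 15.8 at 4 h and 12.3 and 17.9 at 8 h, and none at 48 h. NANOG appeared here at 2 h only (8.49 and 7.72). SOX2 was in both lists at 0 h (4.30 and 6.35), but with summits at -28380 and -28101 bp, apart from the GATA6 summit. The nearest protein-coding start was that of Mcts2.

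The Id1 site 36246 bp downstream of the start (chr2:152771475-152773311, intergenic, nearest to the start of Cox4i2) held the highest NANOG and SOX2 folds of this gene before induction. The SOX2 fold was 24.0 and 17.9 at 0 h, 6.62 and 21.3 at 2 h, 21.1 and 20.8 at 4 h and 6.16 and 9.5 at 8 h. The NANOG fold was 7.18 and 8.42 at 0 h, 14.6 and 11.4 at 2 h and 9.12 and 7.24 at 4 h, with none at 8 h. GATA6 was at 11.6 and 14.1 at 2 h, 6.14 and 15.2 at 4 h, 4.36 and 5.61 at 8 h and absent at 48 h. The start of Id1 (summit 22 bp upstream) was held in both lists by SOX17 only (6.93 and 6.61), with GATA6 in 1 list each at 2 and 4 h.

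Around Id2, the same site had the highest fold for GATA6 at 2 h and for NANOG and SOX2 at 0 h. It lay 47588 bp upstream (chr12:25144316-25145480, intergenic). The GATA6 fold was 16.2 and 9.47 at 2 h, 10.1 and 17.6 at 4 h and 4.36 and 3.11 at 8 h, and no list had a peak at 48 h. SOX2 was higher than GATA6 here at 2 h on this scale (17.9 and 23.6), although the background of the SOX2 lists was lower and folds are therefore not directly comparable between proteins. NANOG went from 5.78 and 7.09 at 0 h to 17.3 and 9.75 at 2 h and 5.88 and 6.20 at 4 h. The site at the Id2 start, with its strongest summit 207 bp downstream in a UTR, was held at 2 h by NANOG in both lists (9.85 and 5.56). GATA6 was also in both 2 h lists, but with summits at different places, 966 bp downstream in list 1 (4.45) and 165 bp in list 2 (7.65). Neither protein was in both lists at any other time.

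Of the sites with the highest GATA6 fold at 2 h around each gene, only the Smad6 site had GATA6 peaks at 48 h. It was also the only one with GATA4 in both lists at 24 h. The site 23439 bp upstream (chr9:64044985-64045870, intergenic) had a GATA6 fold of 23 and 15.1 at 2 h, 18.1 and 23.9 at 4 h, 14.8 and 18.2 at 8 h and 5.64 and 11.7 at 48 h. The lists of 2, 4 and 8 h overlapped, and the 48 h lists lay below all of them. No NANOG list held a peak here, nor at the Bmp2 site 26565 bp downstream. SOX2 was present at 8 h only (3.81 and 5.40), and GATA4 (7.80 and 6.59) and SOX17 (3.07 and 4.97) were present at 24 h. The Smad6 site 21074 bp upstream was held by NANOG (4.51 and 5.29) and SOX2 (10.3 and 9.23) at 0 h and by GATA6 at 2 h (8.99 and 8.58). That 28300 bp upstream, in an intron of the lincRNA gene 1110036E04Rik, was held by SOX2 at every time point and by GATA6 in both lists from 2 to 8 h (16.6 and 10.9 at 2 h, with summits at -28300 and -28769 bp). Near the Smad6 start, 971 bp upstream, GATA6 (10.5 and 8.85) and NANOG (8.67 and 8.23) were present at 2 h, and NANOG was absent at 0 h.

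Bmp2 had 1 site with both GATA6 2 h lists, the repeat-rich site 26565 bp downstream (chr2:133578424-133579147, intergenic). Its fold was 6.41 and 6.63 at 2 h, 13.7 and 10.5 at 4 h and 7.42 and 9.09 at 8 h, with no peak at 48 h, so that both 4 h lists lay above all others. The site 33949 bp downstream was the Bmp2 site occupied in most groups. There GATA6 was present in both lists at 4 h (5.33 and 4.60) and 48 h (4.53 and 4.05), SOX2 at 4 h (4.77 and 5.11) and SOX17 at 24 h (8.43 and 9.58). At 2 h (3.20) and 8 h (3.22) GATA6 was in list 1 only. The SOX17 summits lay 33949 and 33967 bp downstream, apart from the GATA6 summits at 34326 to 34532 bp. NANOG was near Bmp2 only at 0 h, 2644 bp upstream (5.52 and 3.68), and no SOX2 site was shared by both 0 h lists.

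**Figure D3:**
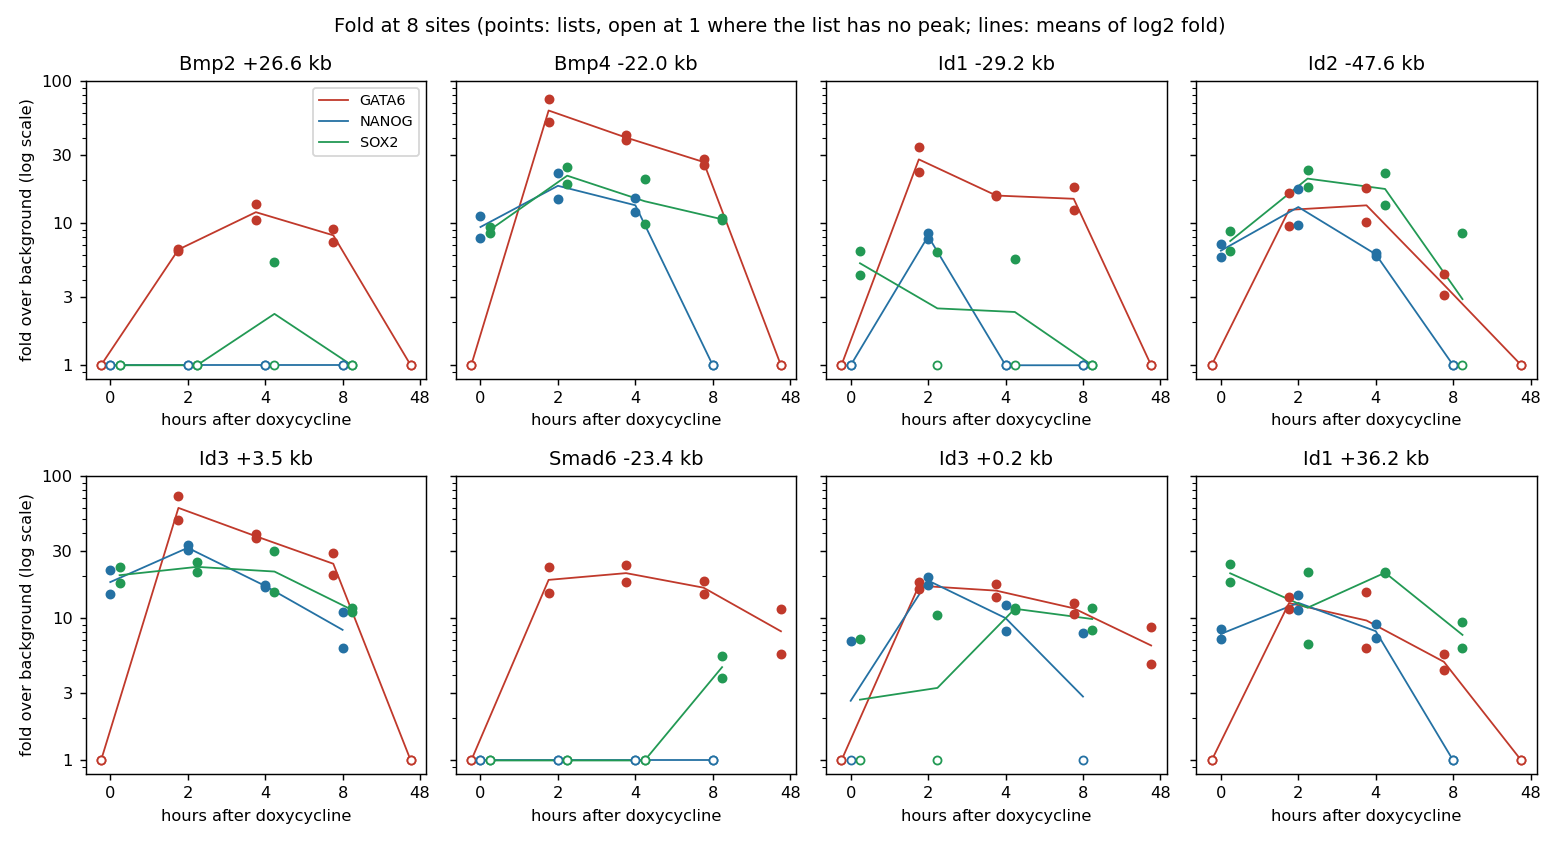
Fold over background (y axis, log scale) of GATA6, NANOG and SOX2 against hours after doxycycline (x axis, not to scale) at 8 sites, named by gene and distance from its start. Points are lists, open at 1 where a list has no peak, and lines are means of the log2 fold. The sites upstream of Bmp4 and downstream of Id3 reach GATA6 folds of 75.2 and 72.3, and the upstream Smad6 site and the site at the Id3 start have GATA6 in both lists at 48 h. The highest fold of a list is drawn, which at the Id3 start is the summit further into the gene at 48 h.

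The fold over time was also put through the exact permutation F test, with a fold of 1 imputed where a list had no peak. It called 31.9% of the 53223 GATA6 sites of the genome (51.3% at an unadjusted p of 0.05 or less), 0% of the 21596 NANOG sites (18.8% at an unadjusted p of 0.05 or less) and 0% of the 31578 SOX2 sites (12.0%). A site entered this test by having a peak in both lists of at least 1 time point, for 43 of the 44 member sites of GATA6 at 2 h, and the other time points were then filled with a fold of 1. The test therefore largely restates how the sites were picked, and no call is read from it for the sites near the 6 genes.

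The mean number of NANOG peaks was highest at 2 h around all of the genes except Bmp2, and at 8 h NANOG peaks were found around Id3 only. The mean share of NANOG peaks held by the 6 genes was 0.0900% at 0 h. It was 0.0586%, 0.0644% and 0.0535% at 2, 4 and 8 h. From 0 to 2 h this share fell, while the mean number of these peaks rose. At 8 h it was 0.0182% and 0.0888% in the 2 lists, from 1 and 2 peaks. List 2 at 8 h thus lay above list 2 at 0 h (0.0865%). Over all protein-coding genes the median NANOG peak number was also highest at 2 h, at 0.5, 2, 0.5 and 0 in order of time. Of all these genes 5.83% had a peak in both NANOG 8 h lists. For Bmp4, Id2 and Id3 at least 1 of the 2 h lists did not exceed both 0 h lists. Id1 had 1 NANOG peak in each list at 0 h, 8 and 4 at 2 h, 2 and 1 at 4 h and none at 8 h. Id3 had 3 and 4, then 7 and 4, then 4 and 2, then 1 and 2. Bmp4 had 2 and 3, then 3 and 3, then 2 and 1, then none. Id2 had 2 and 3, then 8 and 2, then 2 and 2, then none. Smad6 had 1 and 2, then 4 and 3, then 1 and 2, then none. Bmp2 had 1 in each 0 h list and none later.

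No NANOG result passed the adjusted test. By the exact permutation F test with Benjamini-Hochberg adjustment the smallest adjusted p of a member was 0.282, for Id1 (unadjusted p = 0.0286), and Smad6 had an unadjusted p of 0.0476, so that 0 of 6 genes were called beside 0% of 19063 genes, and 2 of 6 had an unadjusted p of 0.05 or less beside 11.5%. With 8 lists the test reaches no p below 0.00952, and 19.0% of all features would have to be at that value before any passed. The NANOG lists held 10691 and 16178 peaks at 0 h, 52283 and 26740 at 2 h, and 5506 and 2253 at 8 h. In lists cut to 2253 peaks the 6 genes together had 2 and 3 NANOG peaks at 0 h, 3 and 5 at 2 h, 4 and 2 at 4 h and 1 and 2 at 8 h.

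SOX2 peak numbers differed widely between the 2 lists of a group at 2 and 4 h. Id1 had 7 and 5 SOX2 peaks at 0 h, 2 and 6 at 2 h, 8 and 4 at 4 h and 3 and 3 at 8 h. Id3 had 2 and 5, then 1 and 6, then 7 and 3, then 3 and 2. For these genes the 2 h lists enclosed both lists of 8 h. The SOX2 lists of 2 h held 24071 and 52572 peaks and those of 4 h 45338 and 24615, and the longer list of each pair also had more peaks near the 6 genes (31 against 12 at 2 h, 34 against 15 at 4 h). Of the 6 genes 0 were called beside 0% of 19924, and 0 of 6 had an unadjusted p of 0.05 or less beside 2.81%.

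Before induction, both 0 h lists of NANOG held a peak at 7 member sites and both of SOX2 at 12. Of the 7 NANOG sites 6 were also in both GATA6 2 h lists (85.7%, against 78.0% of all 7574 such NANOG sites), and of the 12 SOX2 sites 10 were (83.3%, against 67.4% of 17357). Seen from GATA6, 6 of its 43 member sites at 2 h (14.0%) were held by NANOG at 0 h and 10 (23.3%) by SOX2, against 13.2% and 26.1% of all GATA6 2 h sites. The 10 member sites with NANOG or SOX2 in both 0 h lists had a median GATA6 fold at 2 h of 15.6, and the 23 with neither in any 0 h list 6.52. Over all GATA6 2 h sites the medians were 8.54 at 12554 sites and 6.35 at 25651. The 10 include the Id1 site 29204 bp upstream, where the SOX2 summits lay apart from that of GATA6, and the difference was not tested. A NANOG peak in both 2 h lists was found at 11 member sites, of which 3 had no NANOG peak in either 0 h list, all 3 with GATA6 at 2 h, and these were the Id1 sites 29204 and 9244 bp upstream and the Smad6 site 971 bp upstream, named after their values were seen. In the genome 50.7% of the 18866 NANOG 2 h sites had none at 0 h. Of these 9572 sites, 8284 also had GATA6 in both 2 h lists.

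**Figure D4:**
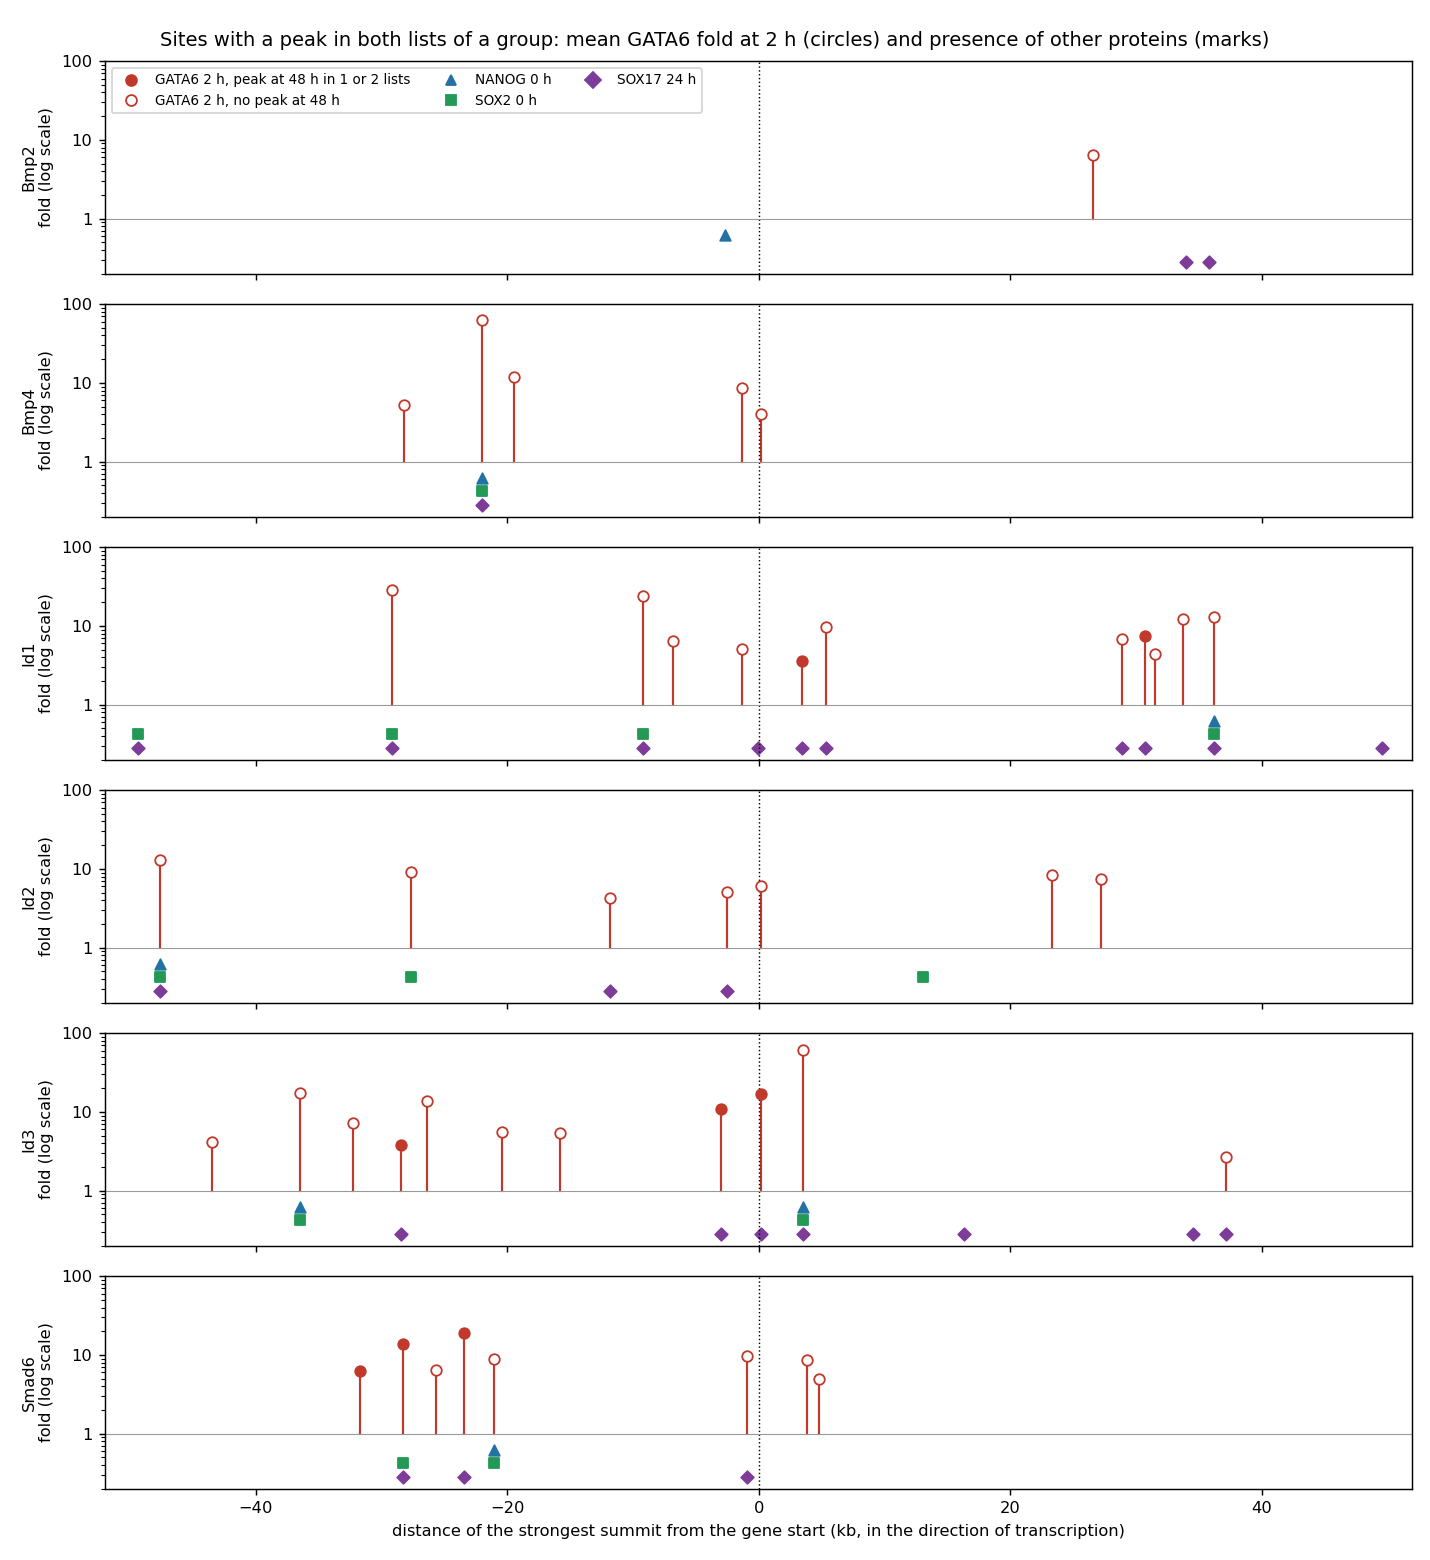
Member sites around each gene start (x axis, distance of the strongest summit in kb in the direction of transcription) that hold a peak in both lists of a group. Circles give the mean GATA6 fold of the 2 h lists (y axis, log scale), filled where GATA6 also had a peak at 48 h, and marks below 1 show where NANOG or SOX2 was present at 0 h and SOX17 at 24 h, with no scale. Of 43 GATA6 sites 8 are filled, 2 around Id1, 3 around Id3 and 3 around Smad6, and none around Bmp2, Bmp4 or Id2.

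Of the 43 member sites with GATA6 at 2 h in both lists, 35 (81.4%) were still in both lists at 4 h, 25 (58.1%) at 8 h and 3 (6.98%) at 48 h, where the shares over all GATA6 2 h sites were 63.8%, 38% and 5.79%. Under the record, the shares given for 4, 8 and 48 h would be those of 8, 48 and 4 h. In that case 25 of the 43 (58.1%) would be in both lists at 48 h. No 48 h peak in either list was found at 35 of the 43 (81.4%), against 89.1% of all. The 3 sites kept in both lists were the Smad6 site 23439 bp upstream, the site at the Id3 start (through its summit further into the gene), and an Id3 site 28477 bp upstream, named after its values were seen, with 48 h folds of 4.96 and 3.86, close to its 2 h folds of 4.04 and 3.61. Both 48 h lists also shared the Bmp2 site 33949 bp downstream. None of the only 4 member sites with both 48 h lists was first bound at 48 h, where 840 of 4175 sites of the genome were. Of the 43 sites 8 had a 48 h peak in at least 1 list. A GATA match near the strongest summit of any protein was held by 5 of these 8, against 14 of the 35 without. Over all sites the shares were 66.1% of 4900 and 52.2% of 39868.

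SOX17 peaks at 24 h were numerous around Id1 and Id3. Id1 had 14 and 17 SOX17 peaks, above 99.5% of genes, or 6 and 7 when only peaks nearest to its start were counted. Id3 had 9 and 12 (97.5%), or 6 and 8 when counted in that way. Id2 had 6 and 4, Smad6 4 and 4, Bmp2 2 and 4 and Bmp4 1 and 1. Both SOX17 lists held a peak at 19 of the 43 GATA6 2 h sites (44.2%, against 25.4% of all), and at 26 member sites in all. The highest mean SOX17 folds, at sites named after their values were seen, were at the Id1 site 9244 bp upstream (13.8 and 11.9), which also held SOX2 at all 4 time points, and at the Id3 site 34507 bp downstream in an intron of E2f2 (8.34 and 11.9), where GATA6 was in 1 list only.

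GATA4 was sparse. Id1 and Id3 each had 3 and 2 GATA4 peaks at 24 h (above 96.1% of genes), Smad6 1 and 1, Bmp4 1 and 0, and Bmp2 and Id2 none. Counting only peaks nearest to the start left 1 and 1 for Id1 and 3 and 2 for Id3. Both GATA4 lists shared 4 member sites, also named after their values were seen, which were the Id1 site 3462 bp downstream (6.36 and 12.2), the Id1 site 49601 bp downstream in an intron of Bcl2l1 (6.22 and 5.44), the Id3 site 28477 bp upstream (5.45 and 7.21) and the Smad6 site 23439 bp upstream. All 4 were also in both SOX17 lists, and 2 of them were in both GATA6 48 h lists. The same shares over all 3108 sites with both GATA4 lists were not computed, and 4 sites are few. With 1 time point each, GATA4 and SOX17 were not tested.

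Most member peaks rested on few fragments. The median was 15 fragments at the summit for GATA6 at 2 h (129 of 130 peaks resolved, 6 to 175), 17 at 48 h, 11 for NANOG at 0 h and 9 for SOX2 at 0 h. Of the 130 GATA6 2 h peaks 79 had a −log10 q-value of at least 5, and 20 (15.4%) were in the strongest 10% of their list. All 3 NANOG peaks left at 8 h were in the strongest 10%. A site with no peak had too few fragments for a call at that depth, and absence of binding was not shown.

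Other genes of the pathway, 40 in all and listed by role, had a median of 3.75 GATA6 peaks at 2 h, against 10.5 for the 6 genes and 3.5 for all protein-coding genes. GATA6 peak number over time was called for 19 of 38 that could be tested, beside the 47.4% of all genes, namely for 5 of 10 ligands, 4 of 7 receptors, 3 of 6 SMADs and their regulators, 3 of 9 antagonists and 4 of 6 targets. NANOG (0 of 35) and SOX2 (0 of 38) gave no calls, and none of these genes had an unadjusted p of 0.05 or less for either. The gene with the most GATA6 2 h peaks was Bmp10 among the ligands (6 and 7 peaks), Acvrl1, a type I receptor, among the receptors (7 and 10), Smad7, the other inhibitory SMAD, among the SMADs (22 and 24), Bambi, a decoy receptor, among the antagonists (9 and 13), and Msx2, a homeobox gene, among the targets (14 and 15). Smad7 at 2 h was above 99.5% of genes, higher than any of the 6. At 48 h Smad7 had 1 peak in each list, Msx2 1 and 2, Acvrl1 0 and 1, and Bmp10 and Bambi none. The call for Acvrl1 (adjusted p = 0.0278) was lost on leaving out any of 4 lists, with adjusted p up to 0.0662 in the exact permutation test.

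The genes whose peak numbers over the 30 lists were most like those of each member, by Pearson's r of log2(peak number + 1) and more than 200 kb away, were Arl14 and Pebp4 for Bmp2 (0.87 and 0.85), Arhgef18 and Adprh for Bmp4 (0.95 and 0.95), Tnfsf12 and Tnfsfm13, which overlap each other, for Id1 (0.97 and 0.97), Mobp and Rsbn1l for Id2 (0.96 and 0.95), Tnrc18 and Notch1 for Id3 (0.93 and 0.92), and Pck2 and Trim8 for Smad6 (0.96 and 0.95). All genes share the lengths of the same 30 lists, which differ by orders of magnitude, and r is given as a description.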

How the data were processed

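The authors aligned CUT&RUN reads to mm10 with Bowtie2, removed blacklisted regions, kept duplicates and called narrow peaks per library with MACS against a control library. The deposited peak lists give the fold, the ratio of summit fragments to background with 1 added to both, and the −log10 p-value and q-value, as the authors' peak caller wrote them. Of 57 samples 27 have no peak list used here and were not analysed. Peaks were assigned to genes by summits within 50 kb of GENCODE starts. Time points were compared by an exact permutation F test of log2(peak number + 1) per gene, or log2 fold per site, with Benjamini-Hochberg adjustment over all features, tested on simulated data, in Python 3.11.15 with NumPy 2.4.6, pandas 2.3.3 and SciPy 1.17.1. Alternatives changed the q-value minimum, window, gene starts, list length, site definition, value for absent peaks, and lists included. Sites were named by the highest GATA6 2 h, NANOG 0 h or SOX2 0 h fold, most groups with both lists, a place within 1 kb of the start, or GATA6 at 48 h only. Members and gene lists were chosen with earlier results of these data known. GATA6 time points follow the peak names for 6 lists that disagree with the record. With 2 lists a group, a pair of groups alone allows no exact p below 0.333. Library read totals are not given in the lists, and fragments at a summit set the precision of each peak.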

Additional observations from a re-analysis of the deposited data

How the results depend on the processing

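The number of genes whose GATA6 peak number was called over time (9311) was 5728 with a −log10 q-value of at least 5, 3465 with a window of 25 kb, 15170 with 100 kb, and 0 in lists of equal length, for induced time points only, and with the replicate block (9293 at an unadjusted p of 0.05 or less in the exact permutation test). Leaving out 1 list gave 6807 to 9143. Equal length and induced time points left 8 lists, with which the exact permutation F test reaches no p below 0.00952. Then 19.0% of all features would have to be at that value before any passed. The replicate block also allows few arrangements. These alternatives with 0 calls therefore cannot show that a change was absent. The number of GATA6 sites called (16988) was 35760 with the lowest fold of a list where it had no peak, 3937 with sites defined by summits, 0 with the replicate block (20215 unadjusted), and 0 to 4279 without 1 list. Replicate numbers did not pair the samples (correlations of deviations from -0.164 to 0.0651), so the replicate block joins lists that share only a number. NANOG and SOX2 had 0 calls under every alternative run. Peaks near the 6 genes numbered 415 of 662 with a −log10 q-value of at least 5. In lists of equal length the difference in peak number turned positive for GATA6 (48 h minus 2 h) at Bmp2 (0.5), Smad6 (1) and Acvrl1 (0.5), and for SOX2 (8 h minus 2 h) at Id1 (0.5), Id2 (0.5), Id3 (1) and Smad6 (1). At 25 kb it was 0.5 for SOX2 at Id2. Without 1 list the SOX2 difference ranged from -3 to 1 at Id1, -3 to 1 at Id2, -3.5 to 1.5 at Id3 and -2.5 to 0.5 at Smad6. The log2 SOX2 fold difference ranged from -0.085 to 3.31 at the Id3 start, -1.48 to 0.21 at the Id1 site 36246 bp downstream and -0.18 to 0.13 at the Smad6 site 28300 bp upstream. Where a value changed, the cause was not tested.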
